A study of Homo sapiens with 6 samples.

Results

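The Notch and Hedgehog pathway genes described here are 38 named genes, 28 of the Notch pathway and 10 of the Hedgehog pathway, chosen by symbol and not by their values, out of 23245 gene rows. They were compared in the human pancreatic cancer line L3.6pl between 3 libraries of ARID1A-deficient cells, titled as an ARID1A knockout and called ARID1A ko here, and 3 libraries of parental cells with wild-type ARID1A. All 6 came from cultures in minimal essential medium with fetal calf serum and no drug, and messenger RNA was captured and sequenced. The labels do not give the number of ARID1A ko clones or how the gene was disrupted, and cells with ARID1A restored are not analysed here, so that effects of its loss and other differences between the 2 cell populations cannot be told apart.

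Notch is a receptor that is cut after it binds a Delta-like or Jagged ligand on a neighbouring cell. The freed intracellular part joins the DNA-binding protein RBPJ and a Mastermind coactivator and switches on genes such as those of the HES and HEY repressors. In the Hedgehog pathway, a secreted ligand binds PTCH1, which releases SMO from inhibition and lets the GLI transcription factors act. In pancreatic cancer, SHH is known as a ligand made by the tumour cells that acts largely on the surrounding stroma.

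Expression is given in FPKM, the fragments of a gene scaled to the length of its transcript and to the size of its library, so levels of different genes are compared per length. ARID1A itself measured 3.55, 3.28 and 3.61 FPKM in ARID1A ko libraries 1, 2 and 3, against 11.8, 6.76 and 9.42 FPKM in parental libraries 1, 2 and 3. Its log2 fold change was -1.18 (SE 0.18, limma adjusted p = 0.0061). Depth was estimated from the most common ratio to parental library 1 among rows under 0.2 FPKM. It was 0.719 to 1.3 in the ARID1A ko libraries and 0.771 to 1.02 in the parental ones. Parental library 2 stood apart, with the highest summed value (792187 FPKM, the others 576084 to 725307). Without it the number of genes that limma called in the whole table was 4079 and not 2043, so counts are given with and without it. Epithelial markers, 7 genes such as KRT8 and EPCAM, summed to 4540 to 5740 FPKM in ARID1A ko libraries and 6290 to 9840 FPKM in parental ones. Of these 7, CLDN4, a tight junction protein, was called higher (log2 fold change 1.68, limma adjusted p = 7.9e-05) and the other 6 did not pass. The median log2 fold change of the 7 was -0.42, and the groups did not overlap for 6 of them. At an unadjusted limma p under 0.05, 4 were lower and 1 higher, and limma without trend and robust moderation called 1 lower. Of the 8 fibroblast markers listed, DCN and LUM were listed at 0 in all 6 libraries, while the summed level was 81.6 to 94.1 FPKM in ARID1A ko libraries and 19.1 to 22.3 FPKM in parental ones. COL1A1 and COL1A2 were the 2 of them that reached a mean of 0.5 FPKM, and limma called both higher (median log2 fold change 3.20). The 7 endothelial markers summed to 8.72 to 9.38 FPKM in ARID1A ko libraries and 8.89 to 10.4 FPKM in parental ones, with EMCN listed at 0 in all 6. The leukocyte markers, of which ITGAM was listed at 0 in all 6, summed to 5.95 to 7.72 FPKM in ARID1A ko libraries and 8.51 to 9.87 FPKM in parental ones. The 7 acinar markers summed to 1.57 to 3.19 FPKM in ARID1A ko libraries and 0.959 to 1.09 FPKM in parental ones. Limma called 1 of the 2 tested endothelial markers and the 1 tested leukocyte marker lower. The 1 tested acinar marker did not pass. The part of other cells in the results below was not tested.

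Promoter windows, from 250 bases before to 50 bases after the start site, were at hand in RefSeq GRCh38.p14 for 31 members. HEY1 and GLI1 were among the members without a window, so their promoters were not read. The windows at hand were read for the letters GTGGGAA, the core of the site that RBPJ binds, and GACCACCCA, the site known for GLI proteins, on both strands. The 31 members had 42 windows. GTGGGAA was in 5 of these, from HES1, HES4, HEYL, HEY2 and RBPJ, and in 6.25% of 35116 windows of all genes. The longer CGTGGGAA, which contains it, was in 3 of the 42, from HEYL, HEY2 and RBPJ, and in 0.826% of all windows. GACCACCCA was in 1 window of PTCH1 and in 0.236% of all windows. The 4 HES and HEY windows and the PTCH1 window are printed because they hold a match and belong to families known as transcriptional targets of the 2 pathways, with the matched letters in capitals (TTCCCAC and TGGGTGGTC are the matches on the other strand). A match is a description of the letters and not a shown binding site.

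HES1 (chr3:194135898-194136197, plus strand, match starting 85 bases before the start site): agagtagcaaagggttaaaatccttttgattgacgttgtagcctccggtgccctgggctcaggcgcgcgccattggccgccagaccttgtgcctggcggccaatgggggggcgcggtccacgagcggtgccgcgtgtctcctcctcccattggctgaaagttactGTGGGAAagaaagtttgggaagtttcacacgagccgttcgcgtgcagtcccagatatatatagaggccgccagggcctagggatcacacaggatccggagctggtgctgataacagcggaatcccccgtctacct
HES4 (chr1:1000048-1000347, minus strand, match 77 bases before the start site): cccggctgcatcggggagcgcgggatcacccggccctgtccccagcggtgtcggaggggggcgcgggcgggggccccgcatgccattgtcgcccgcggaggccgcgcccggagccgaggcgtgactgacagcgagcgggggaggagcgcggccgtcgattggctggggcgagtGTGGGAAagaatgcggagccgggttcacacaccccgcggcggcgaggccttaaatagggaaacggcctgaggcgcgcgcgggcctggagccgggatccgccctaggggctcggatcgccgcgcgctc
HEYL (chr1:39639594-39639893, minus strand, match 178 bases before the start site): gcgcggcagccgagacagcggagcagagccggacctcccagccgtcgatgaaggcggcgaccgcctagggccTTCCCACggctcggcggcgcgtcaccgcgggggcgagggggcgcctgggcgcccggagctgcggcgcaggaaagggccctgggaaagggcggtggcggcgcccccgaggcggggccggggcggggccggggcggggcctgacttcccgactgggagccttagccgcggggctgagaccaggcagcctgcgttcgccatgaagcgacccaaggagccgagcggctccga
HEY2 (chr6:125749382-125749681, plus strand, matches 213 and 4 bases before the start site): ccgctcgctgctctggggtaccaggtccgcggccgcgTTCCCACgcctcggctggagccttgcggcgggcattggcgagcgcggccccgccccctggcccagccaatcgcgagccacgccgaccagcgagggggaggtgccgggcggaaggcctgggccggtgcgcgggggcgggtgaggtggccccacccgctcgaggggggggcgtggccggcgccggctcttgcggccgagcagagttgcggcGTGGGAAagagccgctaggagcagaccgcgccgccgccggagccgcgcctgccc
PTCH1 (chr9:95509217-95509516, minus strand, match 172 bases before the start site): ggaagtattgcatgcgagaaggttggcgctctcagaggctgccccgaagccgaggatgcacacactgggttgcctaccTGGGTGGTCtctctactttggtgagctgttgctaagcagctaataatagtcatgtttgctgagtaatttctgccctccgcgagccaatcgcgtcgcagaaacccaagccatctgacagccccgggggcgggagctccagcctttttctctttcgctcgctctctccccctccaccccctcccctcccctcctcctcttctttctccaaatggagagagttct

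Of the 38 members, 27 reached a mean of 0.5 FPKM over the 6 libraries and were tested. Among these, HEY1 and HEYL rose and DLL1, LFNG and SHH fell in ARID1A ko cells, while 22 did not pass limma's threshold of an adjusted p of 0.05. The 5 called members are 18.5% of the 27, close to the 15.9% called among all 12826 genes tested, of which 7.82% were higher and 8.11% lower. The groups of libraries did not overlap for 12 of the 27 members, or 44.4%, against 35.3% of all tested genes. The median log2 fold change of the 27 was -0.07, and -0.01 over all tested genes. The share of members called was thus near that of all genes, and the calls are described gene by gene. Without parental library 2, 13 of the 27 members were called, the same 5 and 8 more, where 31.8% of all tested genes were called. SHH passed the 0.5 FPKM filter through its parental values alone, and DLL4 and HES7 through their ARID1A ko values alone. Log2 fold changes were taken after adding 1 FPKM, so those of low genes come out too small, and a fold is the ratio of group means in FPKM. Where nothing says that libraries came from separate cultures, p-values measure the spread between these libraries only, and in bulk RNA fewer cells that express a gene and less RNA per cell cannot be told apart.

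**Figure D1:**
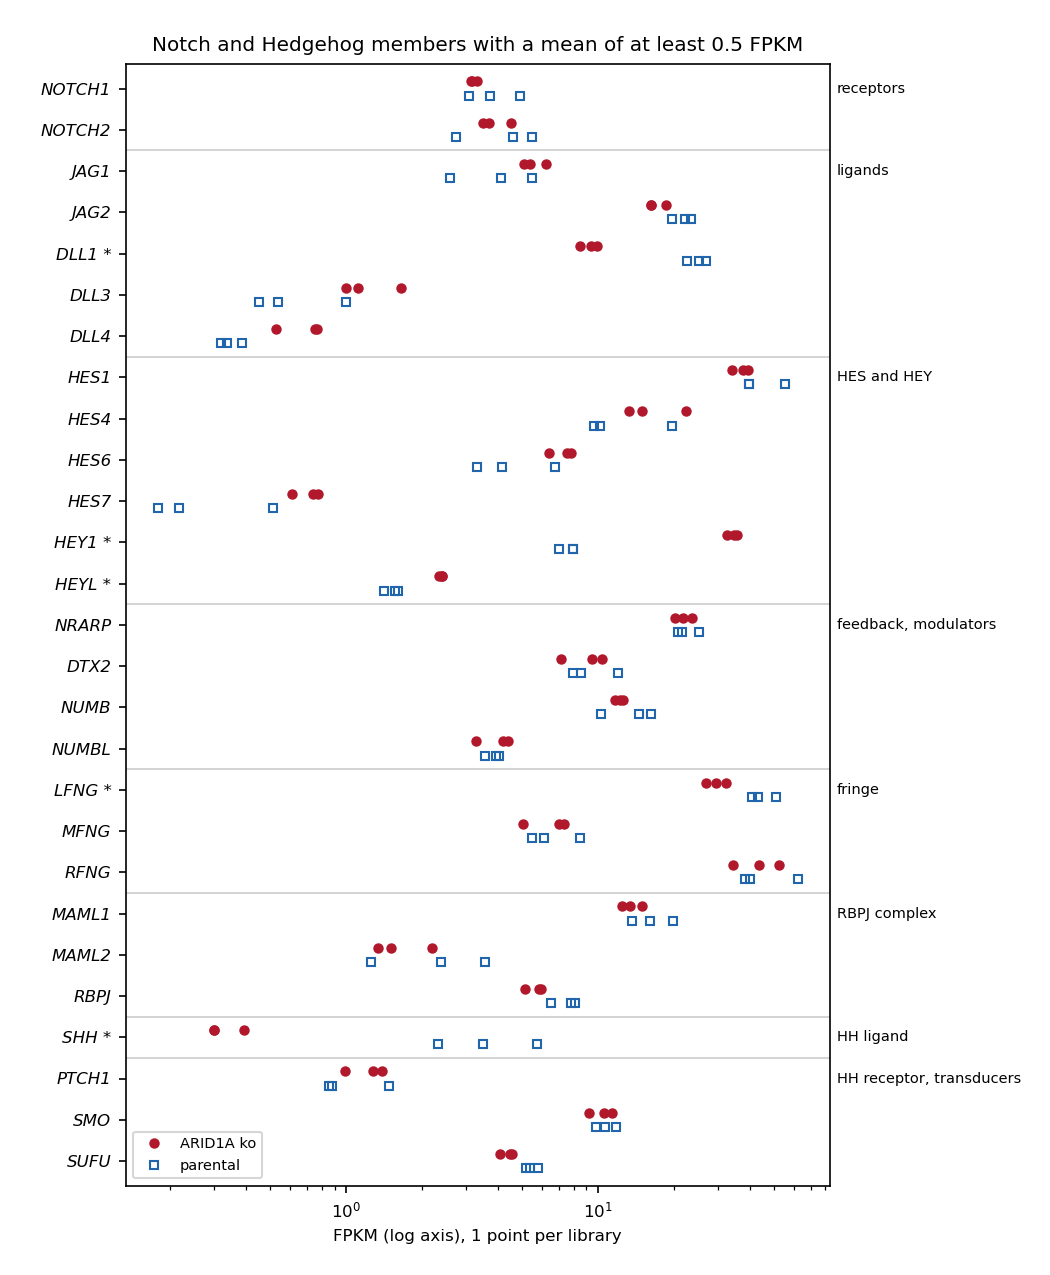
FPKM of the 27 tested members in every library on a log axis, ARID1A ko (filled circles) above parental (open squares), grouped by role, with an asterisk on the 5 called members. The groups lie far apart for DLL1, HEY1 and SHH, and overlap for the receptors and modulators.

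Of the 5 Notch ligand genes, DLL1 fell and the other 4 did not pass. DLL1, a Delta-like ligand that activates Notch on neighbouring cells, measured 9.39, 8.47 and 9.91 FPKM in ARID1A ko libraries, against 26.8, 22.6 and 25.3 FPKM in parental libraries. Every ARID1A ko value was less than every parental one. DLL1 averaged 9.26 ± 0.731 FPKM in ARID1A ko and 24.9 ± 2.1 FPKM in parental libraries (SD, n = 3 each), 2.69-fold lower in ARID1A ko cells (log2 fold change -1.34, SE 0.10, limma adjusted p = 0.000237). The call held in all 13 alternatives run, with adjusted p from 3.74e-09 to 0.00288. The lowest came from the fit with the replicate number as a block, and whether these numbers pair the libraries was not settled. The next was 1.78e-05, without parental library 2. The 24 tested genes nearest to DLL1 on the chromosome had a median log2 fold change of 0.32, in the direction opposite to DLL1. The part of this shift in the result was not tested.

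JAG2, a Jagged ligand, measured 16.2, 16.3 and 18.6 FPKM in ARID1A ko libraries, against 22.1, 23.4 and 19.7 FPKM in parental ones. The groups did not overlap, but the difference did not pass (log2 fold change -0.33, limma adjusted p = 0.0638). JAG1, the other Jagged ligand, measured 6.22, 5.08 and 5.38 FPKM in ARID1A ko libraries, against 5.48, 2.59 and 4.12 FPKM in parental ones, and the groups overlapped (adjusted p = 0.257). DLL1 made up 28.2%, 26.7% and 27.3% of the summed FPKM of the 5 ligand genes in ARID1A ko libraries, against 48.4%, 45.3% and 50.7% in parental libraries. JAG2 made up 48.6%, 51.4% and 51.2% in ARID1A ko libraries, against 40%, 46.8% and 39.5% in parental ones. JAG2 was thus the most abundant ligand transcript per length in each ARID1A ko library, while in parental cells DLL1 was ahead in libraries 1 and 3 and JAG2 in library 2. These shares are a description without a test.

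DLL3 and DLL4 were low. DLL3, a Delta-like protein that does not activate Notch in neighbouring cells, lay between 1 and 1.65 FPKM in ARID1A ko libraries and between 0.452 and 0.998 FPKM in parental ones. DLL4, an activating ligand best known from blood vessels, lay between 0.527 and 0.766 FPKM in ARID1A ko libraries and between 0.319 and 0.387 FPKM in parental ones. Neither passed (limma adjusted p = 0.122 and 0.0643), although the groups did not overlap for either. DLL3 passed without parental library 2 (adjusted p = 0.0142), and DLL4 when every gene above 0 was tested (adjusted p = 0.0415).

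Among the receptors, NOTCH1 and NOTCH2 were the measurable members and neither passed. NOTCH1 measured 3.15, 3.13 and 3.30 FPKM in ARID1A ko libraries, against 4.89, 3.07 and 3.74 FPKM in parental libraries (log2 fold change -0.21, 95% interval -0.55 to 0.14, limma adjusted p = 0.399). NOTCH2 measured 4.50, 3.49 and 3.68 FPKM in ARID1A ko libraries, against 5.46, 2.74 and 4.6 FPKM in parental ones (adjusted p = 0.856). Both groups overlapped, and parental library 2 had the lowest value of all 6 for each gene. NOTCH2 shares nearly identical sequence with NOTCH2NL, listed at 5.47, 6.91 and 5.11 FPKM in ARID1A ko libraries and 5.27, 8.80 and 6.67 FPKM in parental ones, so the split of reads between the 2 rows is uncertain.

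NOTCH3 was under the mean needed for testing, at 0.235, 0.285 and 0.240 FPKM in ARID1A ko libraries, against 0.108, 0.0957 and 0.0571 FPKM in parental libraries. All ARID1A ko values were above all parental ones, and with no filter on low values NOTCH3 was called higher (limma adjusted p = 0.0125), where 12.9% of 17832 genes were called. Its level in either group was a small part of that of NOTCH1. NOTCH4 was listed at 0 in all 6 libraries. Of the 40 rows nearest to NOTCH4 on the chromosome, 34 were also at 0 in all libraries, against 23.3% of all rows, and an exact 0 in such a table can be a failed estimate.

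Of the 8 HES and HEY genes, a family of repressors known for members that Notch switches on, 6 were tested. HEY1 and HEYL rose and the other 4 did not pass, among them HES1, the most abundant of the 8 in parental cells. HEY1 measured 34.6, 32.4 and 35.6 FPKM in ARID1A ko libraries, against 7.99, 7 and 7.97 FPKM in parental ones. The groups lay far apart, with means of 34.2 ± 1.65 and 7.66 ± 0.564 FPKM (SD, n = 3 each), 4.46-fold higher in ARID1A ko cells (log2 fold change 2.02, SE 0.09, limma adjusted p = 2.34e-05). It was the largest change among the tested members in either direction on the log2(FPKM + 1) scale, while with a pseudocount of 0.1 SHH (-3.11) was past HEY1 (2.14). The call held in all 13 alternatives, with adjusted p from 9.34e-12 to 0.000618. The lowest was again that of the replicate block, and the next was 1.14e-06, without parental library 2. The 40 tested genes nearest to HEY1 had a median log2 fold change of -0.42, again opposite in sign to the gene itself. The part of this shift in the result was not tested.

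HEYL measured 2.40, 2.41 and 2.33 FPKM in ARID1A ko libraries, against 1.41, 1.6 and 1.57 FPKM in parental ones, 1.56-fold higher (log2 fold change 0.42, SE 0.09, limma adjusted p = 0.0192). The groups did not overlap. The call ended without ARID1A ko library 1, 2 or 3 or parental library 1 or 3 (highest adjusted p = 0.0819), while the log2 fold change stayed between 0.39 and 0.44. HEY2, the third HEY gene, was too low to be tested, at 0.416, 0.437 and 0.699 FPKM in ARID1A ko libraries, against 0.212, 0.169 and 0.208 FPKM in parental libraries. With no filter it was called higher (limma adjusted p = 0.0377).

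HES1, the best known direct Notch target, measured 34.0, 39.3 and 37.8 FPKM in ARID1A ko libraries, against 39.7, 55.5 and 39.8 FPKM in parental libraries. The groups touched without overlapping, with means of 37.0 ± 2.72 and 45.0 ± 9.14 FPKM (SD, n = 3 each), and the difference did not pass (log2 fold change -0.26, 95% interval -0.61 to 0.09, limma adjusted p = 0.305). HES4, another member of the family, measured 22.3, 15 and 13.3 FPKM in ARID1A ko libraries, against 10.2, 19.6 and 9.65 FPKM in parental ones. HES6, which can counteract HES1, measured 6.38, 7.5 and 7.81 FPKM in ARID1A ko libraries, against 3.31, 6.73 and 4.17 FPKM in parental ones. The groups overlapped for both. HES4 and HES6 did not pass (adjusted p = 0.46 and 0.134), and each passed as higher without parental library 2 (adjusted p = 0.0482 and 0.00217), the library with the highest parental value of both.

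HES7, known from the segmentation clock of the embryo, lay between 0.611 and 0.772 FPKM in ARID1A ko libraries and between 0.179 and 0.514 FPKM in parental ones (limma adjusted p = 0.0686, and 0.0082 without parental library 2). HES2 was too low for the test, at 0.221 to 0.405 FPKM in ARID1A ko libraries and 0.142 to 0.268 FPKM in parental ones. HEY1 made up 34.1%, 33% and 36.1% of the summed FPKM of the 8 HES and HEY genes in ARID1A ko libraries, against 12.7%, 7.66% and 12.5% in parental libraries. HES1 made up 33.6%, 40.1% and 38.4% in ARID1A ko libraries, against 62.9%, 60.8% and 62.4% in parental ones. HEY1 thus stood beside HES1 in ARID1A ko cells and far behind it in parental cells, a description without a test.

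**Figure D2:**
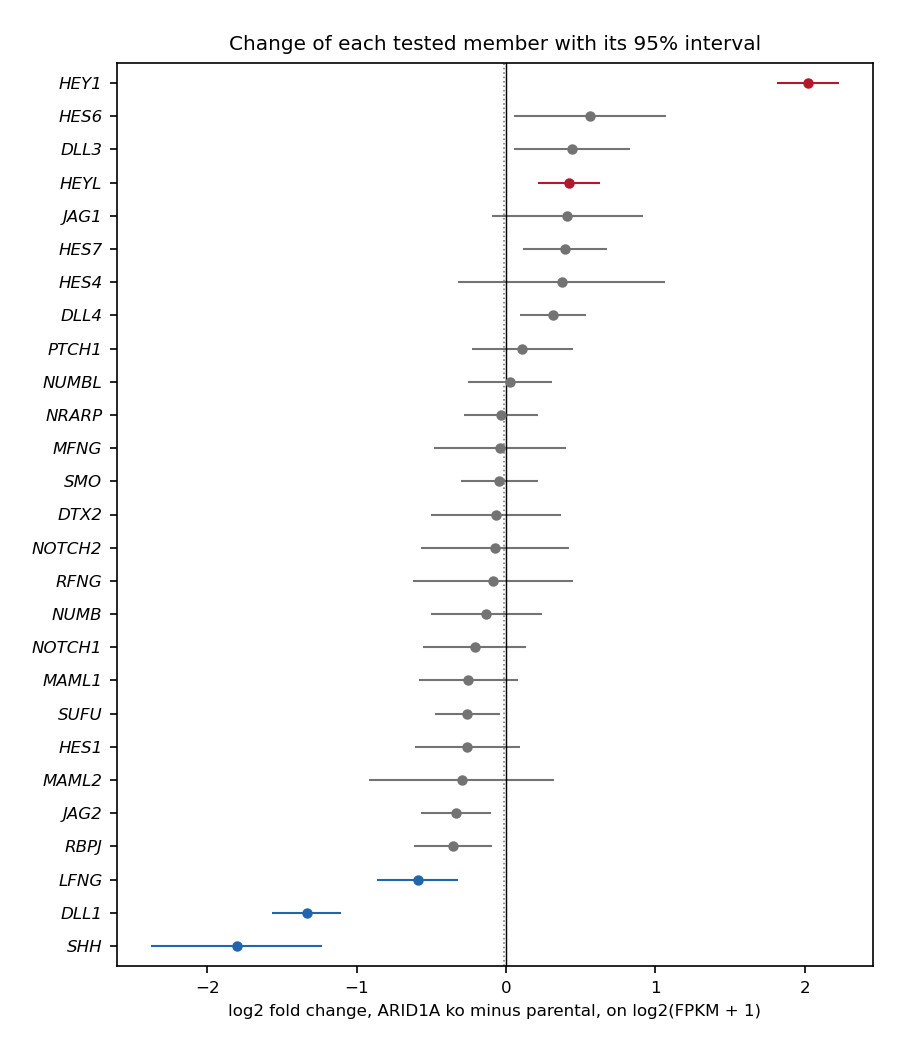
Log2 fold change (ARID1A ko minus parental, on log2(FPKM + 1)) of each tested member, points with 95% intervals from limma, sorted from highest to lowest, called members in colour. HEY1 at 2.02 stands alone at the top, DLL1 at -1.34 and SHH at -1.80 at the bottom, and the dotted line marks the median of all tested genes at -0.01.

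Fringe enzymes add a sugar to Notch and thereby shift its preference between Delta-like and Jagged ligands. LFNG, lunatic fringe, measured 26.8, 32.2 and 29.3 FPKM in ARID1A ko libraries, against 41.0, 50.8 and 43.1 FPKM in parental libraries, 1.53-fold lower in ARID1A ko cells (log2 fold change -0.59, SE 0.12, limma adjusted p = 0.0156). The groups did not overlap, and the call ended without ARID1A ko library 1 or 3 or parental library 3 (highest adjusted p = 0.0761). The 40 tested genes nearest to LFNG had a median log2 fold change of -0.21, the same sign as LFNG, and the part of this shift in the result was not tested.

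The other fringe genes did not pass. RFNG, radical fringe, measured 34.4, 52.5 and 43.7 FPKM in ARID1A ko libraries, against 38.3, 62.0 and 40.0 FPKM in parental ones. MFNG, manic fringe, measured 5.03, 7.36 and 6.98 FPKM in ARID1A ko libraries, against 5.47, 8.52 and 6.13 FPKM in parental ones. The groups overlapped for both (limma adjusted p = 0.842 and 0.915), and library 2 was the highest of its group for each of them in ARID1A ko and in parental cells.

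NRARP, a feedback inhibitor that is itself a direct Notch target, measured 23.6, 21.8 and 20.2 FPKM in ARID1A ko libraries, against 21.5, 25.2 and 20.7 FPKM in parental libraries. The groups overlapped, and the difference did not pass (95% interval of the log2 fold change -0.28 to 0.21, limma adjusted p = 0.865). NUMB, an inhibitor that sends Notch to degradation, measured 12.6, 11.7 and 12.2 FPKM in ARID1A ko libraries, against 16.2, 10.3 and 14.5 FPKM in parental libraries. It did not pass (adjusted p = 0.63), but was called lower without parental library 2 (adjusted p = 0.0328). Its relative NUMBL measured 3.29, 4.39 and 4.21 FPKM in ARID1A ko libraries, against 4.06, 3.94 and 3.55 FPKM in parental ones. DTX2, a Deltex ubiquitin ligase, measured 7.15, 9.5 and 10.4 FPKM in ARID1A ko libraries, against 7.95, 12 and 8.58 FPKM in parental ones. Neither NUMBL nor DTX2 passed (limma adjusted p = 0.911 and 0.855), the groups overlapped for both, and a pseudogene row of DTX2 at up to 1.18 FPKM may share its reads. DTX1, a Deltex gene known as a Notch target in lymphocytes, did not exceed 0.133 FPKM in any library.

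In the nuclear complex, RBPJ measured 5.83, 5.92 and 5.11 FPKM in ARID1A ko libraries, against 8.09, 6.53 and 7.79 FPKM in parental libraries. The groups did not overlap, yet the difference did not pass (log2 fold change -0.35, SE 0.11, limma adjusted p = 0.0765), and did so without parental library 2 (adjusted p = 0.0135). The 40 tested genes nearest to RBPJ had a median log2 fold change of -0.29. MAML1, a Mastermind coactivator, measured 14.9, 12.5 and 13.4 FPKM in ARID1A ko libraries, against 19.8, 13.7 and 16.1 FPKM in parental ones. MAML2, its relative, measured 2.19, 1.34 and 1.51 FPKM in ARID1A ko libraries, against 3.57, 1.25 and 2.38 FPKM in parental ones. Neither MAML gene passed (adjusted p = 0.284 and 0.518), and both were called lower without parental library 2 (adjusted p = 0.0377 and 0.0376).

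Of the Hedgehog members, SHH fell and was the only called gene of the 4 tested. The others, PTCH1, SMO and SUFU, did not pass, with 0 called higher among the 4 by limma, 0 also without trend and robust moderation, and 0 higher at an unadjusted p under 0.05. SHH, the sonic hedgehog ligand, measured 0.299, 0.392 and 0.299 FPKM in ARID1A ko libraries, against 5.72, 2.31 and 3.50 FPKM in parental ones. Even the lowest parental value was well above the highest ARID1A ko value, although the parental libraries spread widely. SHH averaged 0.33 ± 0.0539 FPKM in ARID1A ko and 3.85 ± 1.73 FPKM in parental libraries (SD, n = 3 each), 11.6-fold lower in ARID1A ko cells. Its ARID1A ko values were all under 0.5 FPKM, where few fragments stand behind a value, so the size of this fold is uncertain.

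The log2 fold change of SHH was -1.80 (SE 0.24, limma adjusted p = 0.00348). With a pseudocount of 0.1 it was -3.11 (adjusted p = 0.00128), which moves the size and not the call. Over the 12 alternatives that tested SHH, the adjusted p lay between 4.66e-05 and 0.0248. The 30 tested genes nearest to SHH had a median log2 fold change of 0.03. IHH and DHH, the Indian and desert hedgehog ligands, did not exceed 0.144 FPKM in any library, so that SHH was the main hedgehog transcript in every library of both groups.

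**Figure D3:**
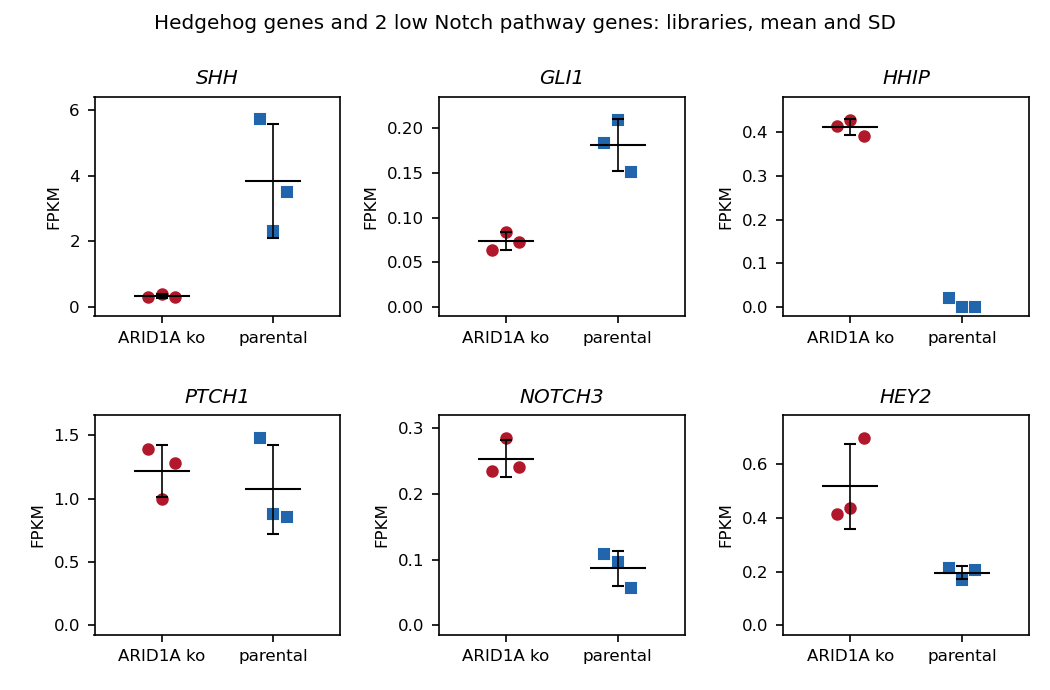
FPKM per library of SHH, GLI1, HHIP, PTCH1, NOTCH3 and HEY2, ARID1A ko (red circles) left and parental (blue squares) right, with mean and SD where no library is listed at 0. SHH and GLI1 were lower and HHIP, NOTCH3 and HEY2 higher in every ARID1A ko library than in any parental library, and PTCH1 overlapped.

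PTCH1, the hedgehog receptor and a standard target gene of the pathway, measured 1.39, 0.993 and 1.28 FPKM in ARID1A ko libraries, against 1.48, 0.881 and 0.855 FPKM in parental libraries. The groups overlapped (log2 fold change 0.11, 95% interval -0.23 to 0.45, limma adjusted p = 0.669). SMO, the membrane protein that passes the signal on, measured 9.23, 11.4 and 10.6 FPKM in ARID1A ko libraries, against 10.7, 11.8 and 9.85 FPKM in parental ones (95% interval -0.30 to 0.21, adjusted p = 0.836). SUFU, which holds GLI proteins in check, measured 4.10, 4.55 and 4.49 FPKM in ARID1A ko libraries, against 5.38, 5.16 and 5.77 FPKM in parental ones. The SUFU groups did not overlap, but the difference did not pass (log2 fold change -0.26, SE 0.09, adjusted p = 0.111).

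GLI1, the GLI factor that the pathway itself induces, was low in both groups, at 0.0643, 0.0843 and 0.0725 FPKM in ARID1A ko libraries, against 0.184, 0.209 and 0.151 FPKM in parental libraries. It was 2.46-fold lower in ARID1A ko cells by the means and was called lower when low genes were kept (limma adjusted p = 0.0299). HHIP, a membrane protein that binds and sequesters hedgehog ligands and is itself a pathway target, measured 0.414, 0.429 and 0.392 FPKM in ARID1A ko libraries, against 0.0195, 0 and 0 FPKM in parental libraries. It was called higher with no filter (adjusted p = 0.000261), and no fold is given because 2 parental libraries list it at 0. GLI1 and HHIP, both known as targets of the pathway, thus differed in opposite directions, at levels under 0.5 FPKM where few fragments stand behind a value.

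GLI2 and GLI3, the GLI factors that carry the first response and the repression, lay between 0.15 and 0.468 FPKM in ARID1A ko libraries and between 0.115 and 0.523 FPKM in parental libraries. Neither was called with no filter (limma adjusted p = 0.74 and 0.841). Of the 11 members under the filter, NOTCH4 was at 0 and could not be tested. Of the other 10, 4 were called without the filter, NOTCH3, HEY2 and HHIP higher and GLI1 lower, where 12.9% of all genes were called.

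**Figure D4:**
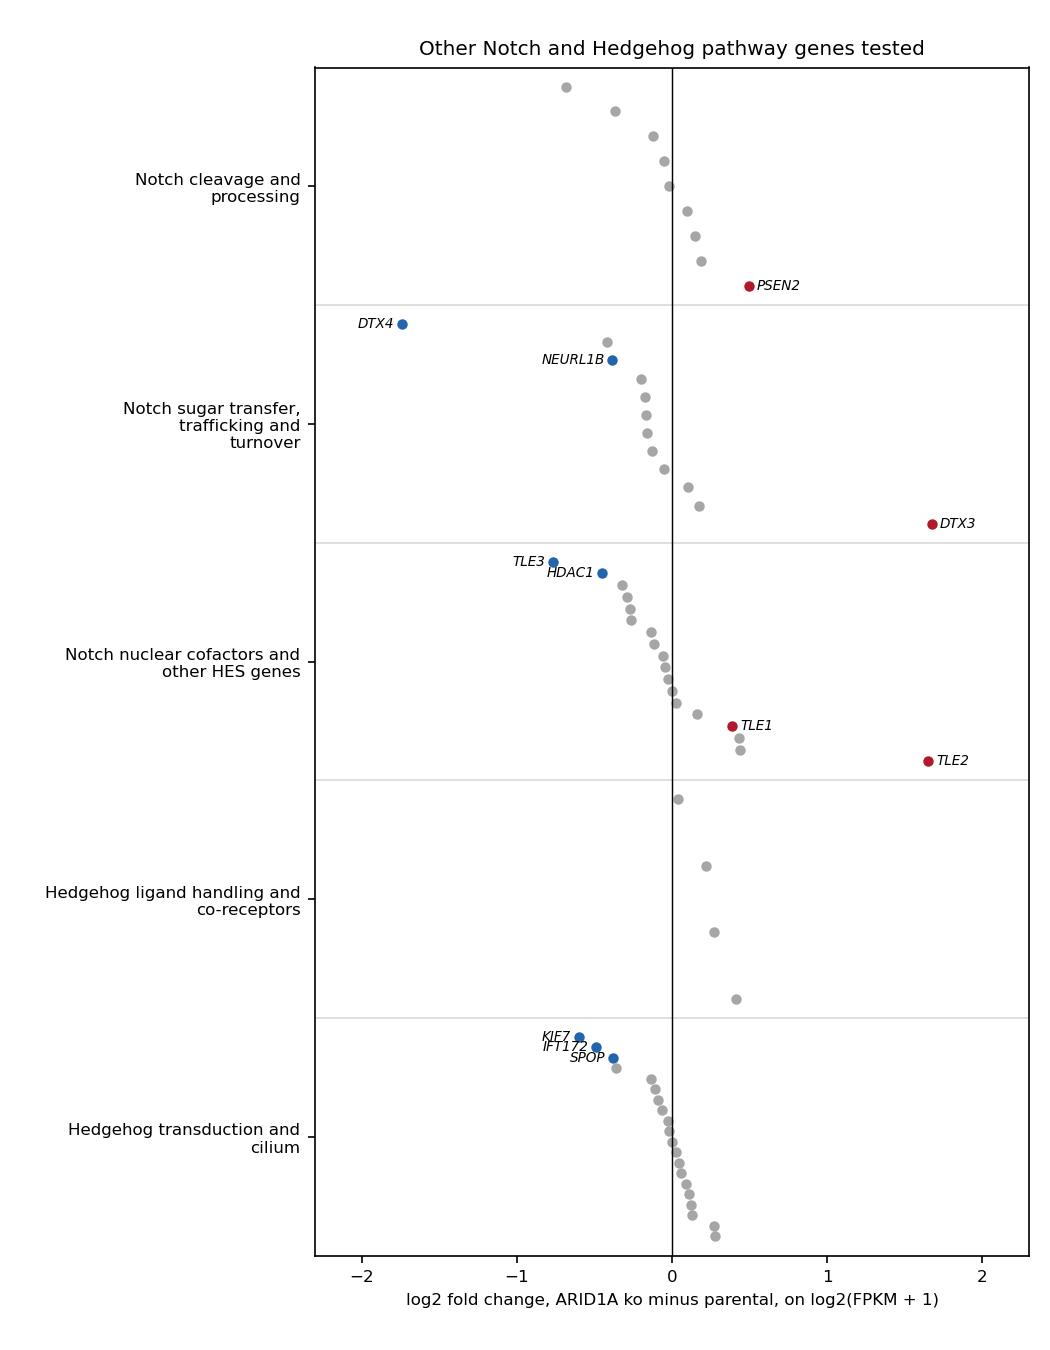
Log2 fold change (ARID1A ko minus parental, on log2(FPKM + 1)) of the 63 tested genes of 5 lists of other pathway genes, with called genes in colour and named. DTX3 and TLE2 stand out as higher and DTX4 as lower.

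Other genes of the 2 pathways were read from 5 lists of 75 genes present in the files, of which 63 were tested. Among these, 4 rose and 7 fell, or 17.5% called, against 15.9% of all tested genes. In the Notch lists, 4 of 39 tested genes rose and 4 fell, and in the Hedgehog lists 3 of 24 fell and 0 rose, with 3 higher at an unadjusted p under 0.05 and 0 higher by limma without trend and robust moderation. The number called over the 5 lists changed with the libraries used. It was 5, 5 and 4 when ARID1A ko library 1, 2 or 3 was dropped, and 8, 21 and 4 when parental library 1, 2 or 3 was dropped. The number called among all 12826 tested genes moved likewise, to 1275, 1082 and 964, and to 1576, 4079 and 1019. The median log2 fold change of the 63 was -0.03.

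Of the Deltex ubiquitin ligases in these lists, DTX3 rose, DTX4 fell and DTX3L did not pass (log2 fold change -0.05, limma adjusted p = 0.825). DTX3 measured 9.34, 12.8 and 11.8 FPKM in ARID1A ko libraries, against 2.55, 3.16 and 2.81 FPKM in parental libraries, 3.98-fold higher (limma adjusted p = 0.000353). DTX4 measured 0.992, 0.835 and 0.779 FPKM in ARID1A ko libraries, against 5.39, 4.95 and 5.40 FPKM in parental libraries, 6.04-fold lower (adjusted p = 6.44e-05). The groups were far apart for both, and both calls held in all 13 alternatives. NEURL1B, a ligase that promotes ligand uptake, was 1.46-fold lower (adjusted p = 0.0437), but this did not hold with upper-quartile scaling or when any library other than parental 2 was dropped (adjusted p up to 0.17).

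Of the 4 Groucho corepressors of the TLE family, which HES proteins recruit, TLE1 and TLE2 rose, TLE3 fell and TLE4 did not pass. TLE4 lay between 1.13 and 1.64 FPKM in ARID1A ko libraries and between 1.27 and 1.55 FPKM in parental ones (limma adjusted p = 0.999). TLE2 measured 18.7, 23.8 and 23.4 FPKM in ARID1A ko libraries, against 5.51, 7.55 and 5.95 FPKM in parental libraries, 3.47-fold higher (limma adjusted p = 0.000478). TLE3 measured 12.8, 13.4 and 13.5 FPKM in ARID1A ko libraries, against 25.1, 22.0 and 22.5 FPKM in parental libraries, 1.76-fold lower (adjusted p = 0.00137). Both calls held in all 13 alternatives, and the groups did not overlap. TLE1 was 1.43-fold higher (adjusted p = 0.0307) but did not pass at a minimum mean of 3 FPKM or when any library other than parental 2 was dropped (adjusted p up to 0.124).

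HDAC1, a histone deacetylase of the RBPJ corepressor complex, was 1.37-fold lower (limma adjusted p = 0.0305), at 97.0 to 104 FPKM in ARID1A ko libraries and 129 to 145 FPKM in parental ones, and the 40 tested genes around it had a median log2 fold change of -0.27. It did not pass when parental library 3 or one of the ARID1A ko libraries was dropped (adjusted p up to 0.143). PSEN2, a catalytic subunit of the gamma-secretase that cuts Notch, was 1.49-fold higher (adjusted p = 0.0266), at 6.67 to 7.72 FPKM in ARID1A ko libraries and 4.25 to 5.40 FPKM in parental ones. PSEN2 did not pass when any library other than parental 2 was dropped (adjusted p up to 0.115). The other 8 tested genes of Notch cleavage, among them ADAM10 and ADAM17, the proteases of the first cut, did not pass, and ADAM10 and ADAM17 were called lower without parental library 2 (adjusted p = 0.0196 and 0.01).

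In Hedgehog transduction, KIF7, a kinesin at the tip of the primary cilium that regulates GLI proteins, measured 4.39, 3.88 and 3.98 FPKM in ARID1A ko libraries, against 7.12, 6.05 and 6.94 FPKM in parental libraries. It was 1.64-fold lower (limma adjusted p = 0.00845) without overlap of the groups, and the call ended without ARID1A ko library 3 or parental library 3 (highest adjusted p = 0.0526). SPOP, a ubiquitin ligase adaptor that targets GLI proteins, was 1.31-fold lower (adjusted p = 0.0233), but not when parental library 3 or one of the ARID1A ko libraries was dropped (adjusted p up to 0.117). IFT172, a component of the transport along the cilium, was 1.5-fold lower (adjusted p = 0.0453) among neighbours with a median log2 fold change of -0.32. Its call ended in 8 of 13 alternatives (highest adjusted p = 0.169). None of the 4 tested genes of ligand handling and co-reception passed limma, with 1, GAS1, a co-receptor, at an unadjusted p under 0.05 (5.37 to 6.54 FPKM in ARID1A ko libraries, 3.79 to 4.74 FPKM in parental ones, adjusted p = 0.0527, and 0.0466 without parental library 2).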

How the data were processed

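Messenger RNA of 3 ARID1A ko and 3 parental L3.6pl libraries was analysed, grouped by sample title. The authors deposited 1 FPKM value per gene and library; the submitters' processing notes name the aligner TopHat2 (2.1.1) beside Cuffnorm (2.2.1.2), Cuffdiff (2.2.1.5) and the build GRCh37 (hg19), but no annotation or scaling option. Per the labels' protocols the TruSeq version 2 kit was used, which does not mark strand, so that antisense reads are not separated. Depth was estimated relative to parental library 1 from the modal ratio of rows under 0.2 FPKM; fragment totals are not known, so precision rests on the spread between libraries.

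Of 23273 rows, 28 with a symbol turned into a date were left out. The 12826 rows averaging 0.5 FPKM or more entered limma 3.58.1 (R 4.3.3) on log2(FPKM + 1), with trend and robust moderation and group as the only term, two-sided, with Benjamini-Hochberg adjustment over all tested rows and a threshold of 0.05. The procedure was tested on simulated data with noise drawn independently for each gene and library. Such data hold no effect shared by a whole library, so the test does not cover one. Alternatives were a pseudocount of 0.1, no filter, a minimum of 3 FPKM, upper-quartile scaling, quantile normalization, limma without trend and robust moderation, the replicate number as a block, and leaving out each library. Members and lists were chosen with earlier results of these data known, and the motif letters with their matches in view. Members that passed or reached a mean of 3 FPKM are given in every library, and up to 4 called genes of each other list are named; other genes named, such as GAS1, CLDN4, DTX3L, TLE4, ADAM10 and ADAM17, and the low members given in every library, were chosen after their values were seen. Neighbours are the 20 tested genes on each side in RefSeq GRCh38.p14 order (fewer at chromosome ends), with a place for 97.1% of tested genes. Promoter sequences are from RefSeq GRCh38.p14; no coordinates were taken from the deposited files. The value of 1 marker gene is not reported here.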

Additional observations from a re-analysis of the deposited data

How the results depend on the processing

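With the replicate block, the genes called were 4049 (1861 higher, 2188 lower), the Notch members 11 (7 higher, 4 lower, with JAG1, JAG2, DLL3, DLL4, HES6, HES7 and RBPJ gained) and the other pathway genes 20 (8 higher, 12 lower). Whether the replicate numbers pair the libraries was not settled. In their deviations from the group mean, ARID1A ko libraries 1 and 2 correlated best with the parental library of the same number (0.219 and 0.217). ARID1A ko library 3 did not (-0.0131), and correlated best with parental library 2 (0.0568). Library 2 had the highest summed value (725307 FPKM in ARID1A ko, 792187 FPKM in parental) and the lowest relative depth (0.719 and 0.771) of each group. With no filter on low values, 7 Notch members (5 higher) and 3 Hedgehog members (1 higher, 2 lower) were called, beside 2309 of 17832 genes (12.9%). When testing needed a mean of 3 FPKM, 667 genes were called higher, 1 Notch member was higher and 0 Hedgehog members passed limma, 0 of them lower, with 1 lower at an unadjusted p under 0.05, since SHH was no longer tested.

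Leaving out 1 library each gave 964 to 4079 genes called (531 to 1982 higher, 433 to 2097 lower), 2 to 12 Notch members (1 to 6 higher, 1 to 6 lower) and 4 to 21 other pathway genes (2 to 7 higher, 2 to 14 lower). DLL1, HEY1 and SHH were called in every alternative that tested them. Log2 fold changes of members that did not pass changed sign when libraries were left out: NOTCH2 -0.303 to 0.0906, NRARP -0.0891 to 0.0467, DTX2 -0.17 to 0.10, NUMBL -0.0353 to 0.13, MFNG -0.16 to 0.12, RFNG -0.23 to 0.13 and SMO -0.107 to 0.0341. The causes were not tested. Without fragment totals, the precision of members under 0.5 FPKM is not known.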
